A study of Drosophila melanogaster with 3 samples.

Results

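The genes described here are 10 components of the Wingless signalling pathway of Drosophila melanogaster: the ligand genes wg and Wnt4, the Frizzled receptor genes fz, fz2 and fz3, and arm, Axn, pan, sgg and nkd, whose products act inside the cell. They were listed by name, and each was examined with all summits inside the gene or up to 5 kb outside it. They are 10 of 13945 protein-coding genes on the 6 main chromosome arms. Of the 5 deposited lists, 1 was made from the 3 replicates pooled and holds 30000 summits, of which 269 fell in these windows. The authors label that list as peaks and background, so a summit found on it alone need not be a binding site. A shorter list rests on the irreproducible discovery rate (IDR), which judges how alike regions rank in the replicates. It holds the 3567 summits of highest signal in the pooled list, and 40 of these fell in the same windows. A single summit on it need not rank alike in every replicate. Summits of that shorter list are termed peaks, and the other summits of the pooled list pooled-only.

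The study measured where the zinc finger protein zf30C sits on chromatin, by chromatin immunoprecipitation and sequencing of whole embryos. There was 1 group of 3 biological replicates and no second condition: embryos of both sexes, aged 0 to 24 h, from a transgenic line, strain zf30C-GFP, in which zf30C carries GFP at its C-terminal end. The labels give zf30C as the target of the antibody, yet their free text names the libraries an input control, and this contradiction bears on every value given. They were treated as immunoprecipitated samples, because the accompanying notes list a separate control alignment. No control library was analysed here. The sources used here do not say which promoter drives the transgene or whether the replicates were separate embryo collections. An embryo collection of this kind mixes all embryonic tissues and stages, so strong binding in few cells and weak binding in many cannot be told apart. The lists hold no read counts, so sequencing depth is unknown. Signal is the authors' value for each region, in a unit not given, and can be compared within a list only.

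In the absence of a Wnt ligand, a complex that includes Axin (Axn) and the kinase Shaggy (sgg, the fly GSK-3) marks Armadillo (arm, the fly beta-catenin) for destruction. When Wingless (wg) binds a Frizzled receptor, this complex is inhibited, and Armadillo enters the nucleus and joins the DNA-binding protein Pangolin (pan, the fly TCF). In the embryo the pathway patterns each segment, and it switches on genes for its own regulators, among them the antagonist naked cuticle (nkd) and the receptor gene fz3.

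Peaks lay at 8 of the 10 genes, against 31.4% of all protein-coding genes and 53.2% of the 1977 protein-coding genes of at least 10 kb. fz2 held 11 peaks, fz and nkd 6 each, sgg 5, fz3 4, Wnt4 and Axn 3 each, and wg 2. arm and pan held none. The windows had 8.20 peaks per 100 kb, against 2.97 per 100 kb summed over the windows of protein-coding genes of at least 10 kb and 2.66 per 100 kb of the 6 arms. Pooled-list summits were also denser there, at 55.1 per 100 kb against 22.4 per 100 kb of the arms. Of the pooled summits in these windows 14.9% were peaks (exact 95% binomial interval 10.8 to 19.7%), against 11.9% in the whole pooled list. The 10 genes are long: 8 of them span at least 10 kb, and their median span was 31.7 kb, against 2.17 kb for all protein-coding genes. With 1 group and genes picked by name, no test of these differences was made, and intervals cover counting error only.

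**Figure D1:**
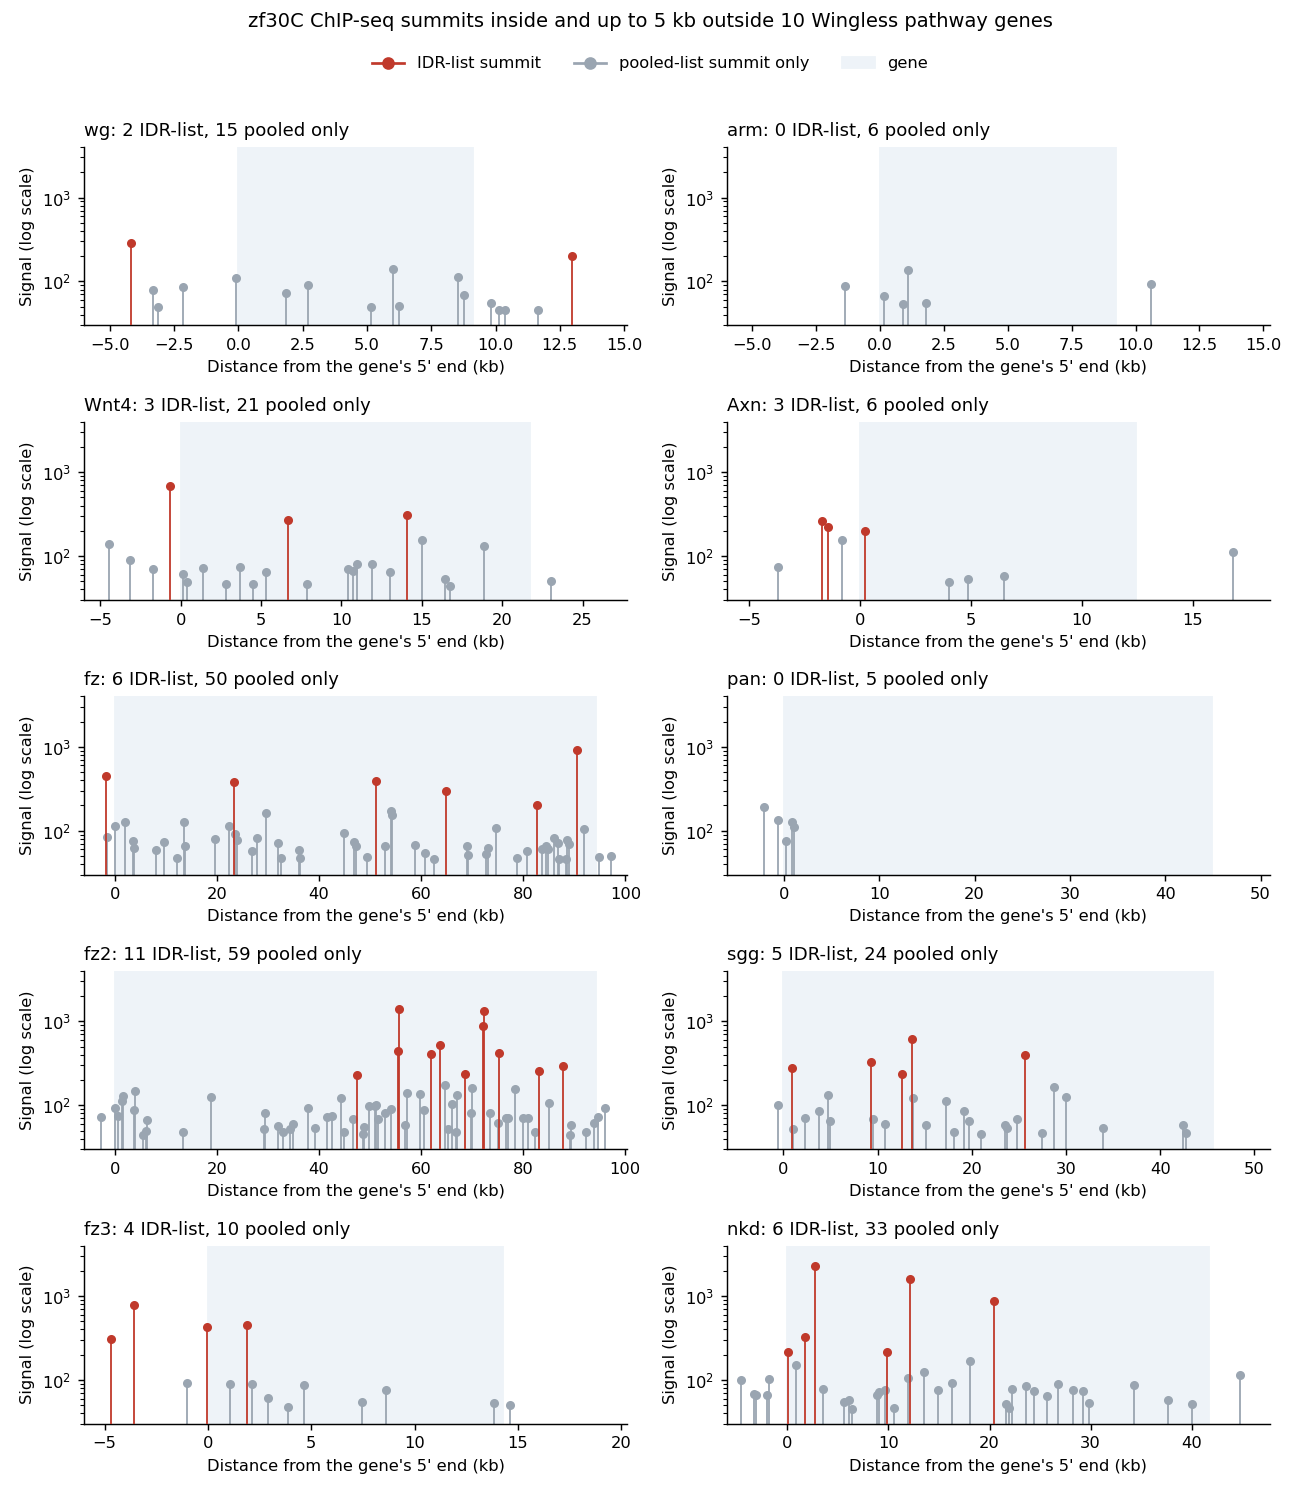
Each panel shows 1 gene: the x axis is distance from the gene's 5′ end in kb, read along its own strand, and the y axis is pooled signal on a log scale. Red stems are peaks, grey stems are summits of the pooled list only, and the shaded band is the gene; the 11 peaks of fz2 lie 47.6 to 87.9 kb from its 5′ end, while arm and pan have grey stems alone.

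The DNA under the summits is shown first, because 4 short words were unevenly spread over these genes. The words came from the 3527 peaks away from the 10 genes, after those data had been seen. They were the 4 words of 6 bases whose count within 50 bp of the summit most exceeded that in 2 flanks of 51 bp centred 300 bp away, relative to the square root of the total. Both strands were read. The first word, ACACTG, was near the summit of 6 of the 40 peaks (15.0%), against 19.9% of the 3527. The next, AGTGTA, was near 5 (12.5%), against 18.5%. A word that overlaps the first, CACTGA, was near 6 (15.0%), against 17.9%. The last, CAGTGC, was near 7 (17.5%), against 15.8%. All 4 hold CACT or its reverse complement, so 1 stretch can match several. The lines give the summit and 50 bp on either side, on the plus strand of Release 6 (the assembly that dm6 denotes, from RefSeq), with matches to any of the 4 words in capitals. The strongest peak of each gene with a peak is shown, and 3 further peaks of fz2 that hold a word, picked after their letters were seen. The fz2 peaks of signal 1330.2 and 422 held no word and are not shown.

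fz2, 55.8 kb from the 5′ end, chr3L:19179502-19179602: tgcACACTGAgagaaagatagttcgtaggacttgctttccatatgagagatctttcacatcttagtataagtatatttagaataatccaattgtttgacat
fz2, 62.1 kb from the 5′ end, chr3L:19173268-19173368: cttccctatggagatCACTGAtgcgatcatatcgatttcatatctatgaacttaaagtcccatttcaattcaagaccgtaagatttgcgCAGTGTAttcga
fz2, 63.8 kb from the 5′ end, chr3L:19171497-19171597: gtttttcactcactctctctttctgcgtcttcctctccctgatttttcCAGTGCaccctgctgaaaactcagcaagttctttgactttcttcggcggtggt
fz2, 83.1 kb from the 5′ end, chr3L:19152201-19152301: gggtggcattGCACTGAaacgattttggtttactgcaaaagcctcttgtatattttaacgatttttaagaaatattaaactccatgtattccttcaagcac
nkd, chr3L:19042709-19042809: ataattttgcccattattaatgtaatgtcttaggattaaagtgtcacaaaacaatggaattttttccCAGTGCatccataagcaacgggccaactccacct
fz3, chrX:766309-766409: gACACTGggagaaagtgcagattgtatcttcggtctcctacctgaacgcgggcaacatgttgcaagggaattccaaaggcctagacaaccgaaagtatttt
Axn, chr3R:30021083-30021183: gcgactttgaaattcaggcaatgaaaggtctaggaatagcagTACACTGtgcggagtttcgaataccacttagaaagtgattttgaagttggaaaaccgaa
fz, chr3L:14364865-14364965: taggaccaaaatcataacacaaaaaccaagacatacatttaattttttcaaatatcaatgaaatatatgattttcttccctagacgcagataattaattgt
Wnt4, chr2L:7277762-7277862: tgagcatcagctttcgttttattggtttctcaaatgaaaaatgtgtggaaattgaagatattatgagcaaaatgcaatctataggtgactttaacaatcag
sgg, chrX:2647508-2647608: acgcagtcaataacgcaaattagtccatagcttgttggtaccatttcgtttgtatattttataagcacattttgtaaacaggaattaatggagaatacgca
wg, chr2L:7302915-7303015: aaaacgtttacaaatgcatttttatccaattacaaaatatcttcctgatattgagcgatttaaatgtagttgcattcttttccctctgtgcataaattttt

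At fz2 9 of 11 peaks held at least 1 of the 4 words within 50 bp of the summit (81.8%, exact 95% interval 48.2 to 97.7%), and 1 of 11 held one in the flanks. At the other genes 7 of 29 peaks did (24.1%, 10.3 to 43.5%), and 5 of 29 in the flanks. Among the 3527 peaks elsewhere the words stood near the summit in 41.8% and in the flanks in 12.9%. The words were chosen for that gap in those same peaks, so it is no result. Over the 10 genes together 16 of 40 peaks held a word (exact 95% interval 24.9 to 56.7%). The words were also found near 22.7% of the 229 pooled-only summits of these genes and 21.7% of the other pooled-only summits. By gene, fz3 had a word at 2 of 4 peaks, Wnt4 and Axn at 1 of 3, sgg at 1 of 5, nkd and fz at 1 of 6, and wg at 0 of 2. The intervals treat neighbouring summits of a gene as independent, although 2 regions of fz2 hold 2 summits each. A word match is a description of the letters, and the split between fz2 and the rest was seen in these data and not tested.

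**Figure D2:**
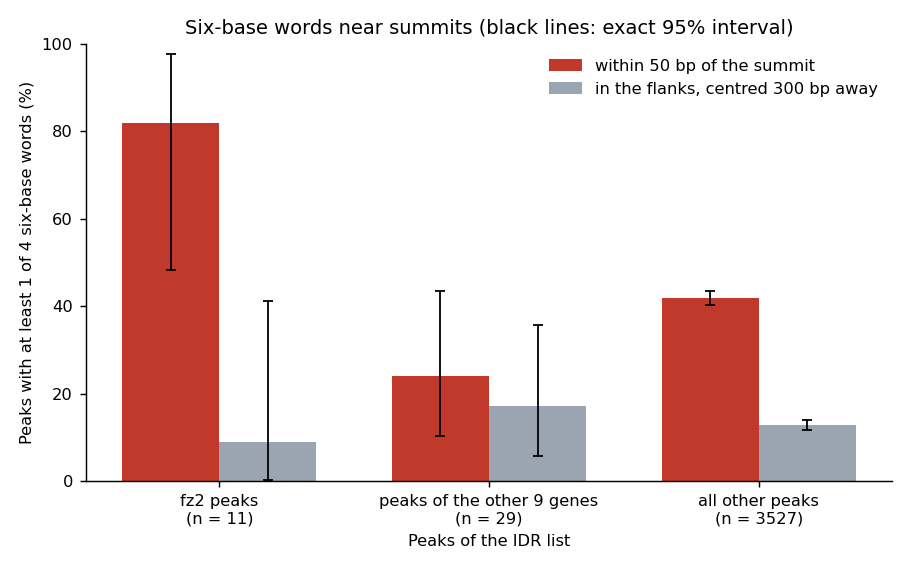
Bars give the percentage of peaks with at least 1 of the 4 six-base words, within 50 bp of the summit (red) or in the 2 flanks centred 300 bp away (grey), for fz2, the other 9 genes and all other peaks; black lines are exact 95% binomial intervals. The share near the summit is 81.8% at fz2, 24.1% at the other 9 genes and 41.8% elsewhere. The words were chosen in the peaks elsewhere for their excess over the flanks, so the gap there is built in.

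Known motifs were read within 100 bp of each summit, on both strands; no match says only that these letters were not in the window. The core of the site that Pangolin itself binds, CTTTGAT, was in 0 of 40 windows (exact upper bound 8.81%), against 3.15% of the windows of peaks elsewhere. GAGAG, read by GAGA factor, was in 14 windows (35.0%), against 34.5% elsewhere; they belonged to fz, fz2, fz3, sgg and nkd. CACACA was in 6 windows (15.0% against 22.7%). CAGGTAG, the site of the early activator Zelda, and TATCGATA, the site of Dref, were in 1 window each, both at fz3, against 1.16% and 1.87% elsewhere.

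The ligand genes wg and Wnt4 carried 2 and 3 peaks, all but 1 of them below 332, the median signal of the 3527 peaks elsewhere. Per 100 kb of window wg had 10.5 peaks and Wnt4 9.45, against 8.20 over the 10 genes. Ranks count from 1 for the highest signal of a replicate's list, and each peak takes the rank of the highest region that overlaps it there. wg encodes Wingless, the main Wnt ligand of the fly, and runs rightward on arm 2L, plus strand, 7307159 to 7316265 (FBgn0284084). In its window were 17 pooled summits, among them 2 peaks, both outside the gene. One lay 4194 bp upstream of the start (7302859 to 7303074, signal 289.7), with ranks 1669, 2341 and 4470 in replicates 1, 2 and 3. The other lay past the 3′ end, 13.0 kb from the start (7319931 to 7320370, signal 199), with ranks 3173, 3236 and 6962. Both were among the 3567 highest regions of replicates 1 and 2 and not of replicate 3. At the wg start itself the pooled list had a summit 84 bp upstream with a signal of 109, rank 8051. The highest of the 15 pooled-only summits was in an intron, with a signal of 139.8. One more peak stood 8189 bp upstream of wg, just outside the window, with a signal of 475.

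Wnt4, a second ligand gene, lies 29.99 kb from wg on the minus strand, at 7255419 to 7277171 (FBgn0010453). Its strongest peak stood 641 bp upstream of its start (7277553 to 7277987, signal 689), with ranks 698, 753 and 902 in the 3 replicates. This is the highest signal of any peak at a ligand gene here, and its replicate percentile of 75.3 ± 3.02 varied little (SD, n = 3). Here percentile means the place of a peak's replicate signal among all 3567 peaks. An intronic peak 14.1 kb from the 5′ end (7262954 to 7263184, signal 311) had ranks 2068, 1908 and 2511. Its nearest start, 5562 bp away, is that of CG31909. The other intronic peak (7270367 to 7270599, signal 272) had ranks 1905, 2727 and 4522, and so fell outside the 3567 highest of replicate 3. Within 500 bp of the Wnt4 start the pooled list had 2 summits, the higher with a signal of 61.6.

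The Frizzled genes included the gene with the most peaks. fz encodes Frizzled, which serves both Wingless reception and the alignment of cells in the epithelial plane. It spans 94.3 kb on arm 3L, 14274343 to 14368639, plus strand (FBgn0001085). Its strongest peak was intronic, 90.6 kb from the 5′ end (14364401 to 14365191, signal 904), and nearest to a start of CG13481, 4792 bp away. Ranks there were 565, 517 and 487, and the percentile was 83.0 ± 1.55 (SD, n = 3). Another peak stood 1734 bp upstream of the start (14272486 to 14272839, signal 451), with ranks 986, 1903 and 2723. The remaining 4 were intronic. That at 14325397 to 14325648 (signal 386), 718 bp downstream of a start of lncRNA:CR45025, had ranks 1456, 2146 and 1435. That at 14297521 to 14297805 (signal 376) had ranks 1700, 1241 and 2478, and that at 14339038 to 14339148 (signal 295) had ranks 2366, 2848 and 1736. The weakest, 14356909 to 14357038 (signal 200.3, ranks 3579, 2589 and 8447), was among the 3567 highest regions of replicate 2 alone. It too is nearest to a start of CG13481, and the peak of signal 295 is nearest to one of CG13482. The 6 peaks were spread over 92.3 kb with a median gap of 17.9 kb. At the fz start the pooled list had a summit 53 bp downstream with a signal of 114.9.

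fz2, which encodes the second Wingless receptor, had the most peaks. It spans 94.4 kb on the minus strand of arm 3L, 19140975 to 19235373 (FBgn0016797), and has 3 annotated starts. All 11 peaks were intronic and lay within 40.3 kb, from 47.6 to 87.9 kb from the 5′ end, with a median gap of 4.16 kb. The other 2 starts stand 64.7 and 88.6 kb from the 5′ end, and 7 peaks were within 10 kb of the start at 64.7 kb. The 5′-most start had no peak within 10 kb. Only 8 of 13945 protein-coding genes, fz2 among them, held 11 or more peaks, a count not matched for gene length. Per 100 kb of window fz2 held 10.5 peaks, fewer than fz3 (16.5), Axn (13.4) and nkd (11.6). The value was 10.5 at wg, 9.45 at Wnt4, 8.99 at sgg and 5.75 at fz.

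The strongest region of fz2, 19179283 to 19179914, held 2 summits, with signals of 1420.4 and 444. Both summits are nearest to a start of the non-coding RNA gene lncRNA:CR45941, 5174 and 4961 bp away. The ranks of the region were 269, 316 and 306, and its percentile was 90.3 ± 0.72 (SD, n = 3). A second region with 2 summits, 19162775 to 19163463, had signals of 1330.2 and 881, ranks 288, 340 and 427, and a percentile of 88.5 ± 2.19. The next was the peak 899 bp upstream of the internal start (19171326 to 19171714, signal 520.0), with ranks 1113, 985 and 1182. These 3 regions stood at similar ranks in all replicates. Next came 19159931 to 19160209 (signal 422, ranks 1634, 1195 and 1114) and 19173177 to 19173337 (signal 406, ranks 1587, 1441 and 1307).

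The weaker peaks of fz2 were less even. The 1 nearest the 3′ end, 690 bp upstream of the last start (19147445 to 19147557, signal 296), had ranks 1931, 2028 and 3465, lowest in replicate 3. That at 19187567 to 19188006 (signal 229) had ranks 1872, 23321 and 6488, a percentile of 16.8 ± 24.5 (SD, n = 3). It too is nearest to a start of lncRNA:CR45941, 3061 bp away. That at 19166654 to 19166888 (signal 234) had ranks 2736, 10811 and 1806. The peaks of signal 229 and 234 were both lowest in replicate 2. The peak at 19152171 to 19152365 (signal 253) had ranks 2233, 2135 and 6686, lowest in replicate 3. Of the 59 pooled-only summits of fz2 the highest lay 36 bp downstream of the internal start, with a signal of 174.7, rank 4138.

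fz3 encodes a further Frizzled and is shorter, 14.3 kb on the plus strand of X, 769945 to 784222 (FBgn0027343). Its 4 peaks all lay between 4.72 kb upstream and 1.91 kb downstream of the 5′ end, and its window was the densest of the 10, with 16.5 peaks per 100 kb. The promoter peak, 31 bp upstream of the start (769725 to 770037, signal 425), had ranks 1691, 1051 and 1379. An intronic peak (771656 to 772074, signal 454) had ranks 1231, 1144 and 1567. Both were among the top regions of all replicates, with percentiles of 58.9 ± 9.25 and 60.5 ± 5.94 (SD, n = 3).

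The strongest peak near fz3 stood 3.59 kb upstream (766189 to 766589, signal 771), with ranks 916, 589 and 420. It is nearer to a start of the non-coding RNA gene lncRNA:CR44966, 1071 bp away. A weaker peak lay at the promoter of that RNA gene, 64 bp upstream of its start (765004 to 765443, signal 308). Its ranks were 6606, 1588 and 832, and its percentile of 43.0 ± 37.2 (SD, n = 3) had the largest SD of the 40 peaks. No expression was measured, so the lists do not say which of the neighbouring genes a peak between them serves.

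**Figure D3:**
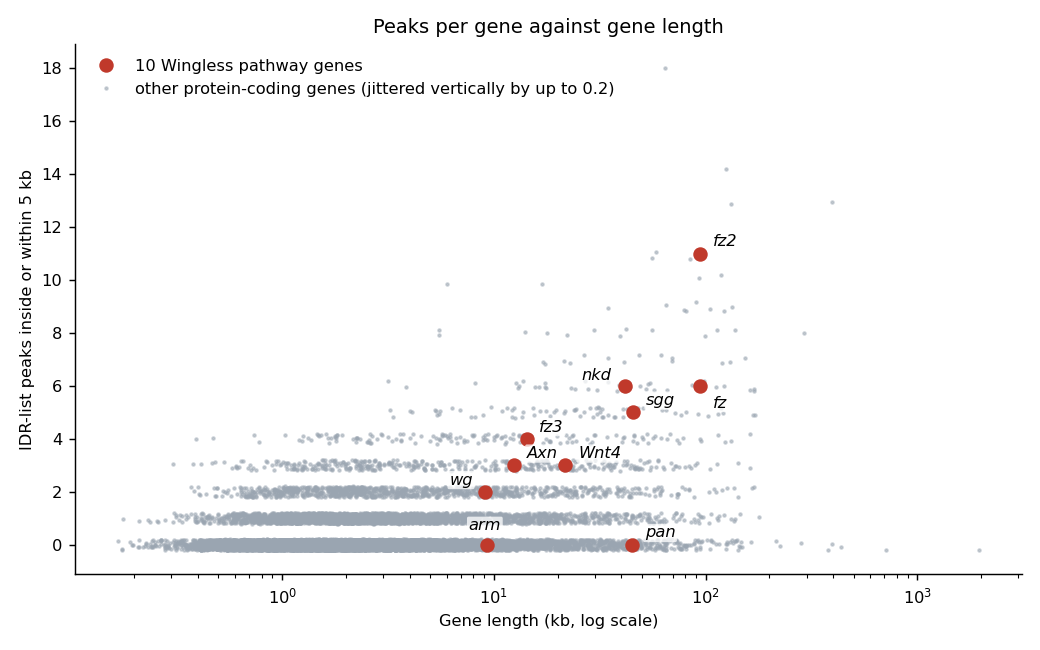
Each point is a protein-coding gene, with its length in kb on a log axis and the number of peaks inside it or within 5 kb on the y axis; red points are the 10 genes, grey points all others, shifted vertically at random by up to 0.2 so that they can be seen. fz2 (94.4 kb) has 11 peaks and fz (94.3 kb) has 6, and arm and pan lie at 0.

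sgg, the gene of the kinase that phosphorylates Armadillo, had 5 peaks. It spans 45.6 kb on the plus strand of X, 2633952 to 2679553 (FBgn0003371), and has 11 annotated starts. The strongest was intronic, 921 bp downstream of a start (2647398 to 2647778, signal 615), with ranks 835, 922 and 937 and a percentile of 72.0 ± 1.11 (SD, n = 3). Promoter peaks stood at separate starts: 1 summit 203 bp downstream (2643000 to 2643439, signal 331, ranks 1637, 1578 and 2428) and 1 summit 122 bp upstream (2646295 to 2646734, signal 239, ranks 2852, 2619 and 2400). The peak at 2659465 to 2659729 (signal 402, ranks 1471, 1793 and 1392) was in a coding exon of sgg, 808 bp downstream of a start. It was 1 of 10 peaks of the whole list in that class. A further intronic peak, 606 bp downstream of a start (2634688 to 2634932, signal 278), had ranks 1896, 3034 and 4885.

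Axn encodes the scaffold on which Armadillo is phosphorylated, and spans 30022842 to 30035311 on the plus strand of 3R (FBgn0026597). Its own promoter had a peak near the end of the list, 252 bp downstream of the start (30022874 to 30023313, signal 199). Ranks there were 3576, 3577 and 4306, so it was the 1 peak of the 40 that no replicate placed among its 3567 highest. The other 2 peaks lay 1.71 kb (30021076 to 30021218) and 1.45 kb (30021288 to 30021519) upstream of Axn, in an intron of the neighbouring gene Mgat2. Their signals were 261 and 222, and in each replicate they overlapped the same region, with ranks 2835, 2459 and 2361.

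arm encodes Armadillo, and spans 1891401 to 1900646 on the minus strand of X (FBgn0000117). It had 6 pooled summits and no peak; the nearest peak stood 41.2 kb beyond its 5′ end. The highest of the 6 was at its promoter, 16 bp upstream of a start (1899320 to 1899759), with a signal of 138 and pooled rank 5827. Its ranks were 5896, 10515 and 3279, so replicate 3 alone placed it among its 3567 highest.

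pan, the gene of the DNA-binding partner, lies on arm 4 at 69326 to 114270, plus strand (FBgn0085432), and also had no peak. Its 5 pooled summits all lay between −2.07 and 1.10 kb from the 5′ end, in a gene of 44.9 kb. The highest was 46 bp upstream of a start of RpS3A, the adjoining ribosomal protein gene (67033 to 67472). Its signal of 191 gave it pooled rank 3613, just below the end of the IDR list, and its ranks were 4345, 3013 and 3132. At the starts of pan itself the highest pooled summit had a signal of 128, rank 6441. A peak lay 8726 bp upstream of pan, outside the window, nearest to a start of ci, the gene of the Hedgehog effector, with a signal of 517.

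nkd, whose product antagonises Wingless signalling by acting on Dishevelled, carried the 2 strongest peaks of the 10 genes. It spans 41.7 kb on the minus strand of 3L, 19003741 to 19045449 (FBgn0002945), 95.5 kb from fz2, with 3 further peaks between the windows of both genes. The highest peak of all 40 was intronic, 2690 bp downstream of the start (19042356 to 19043200, signal 2295). It had pooled rank 110, ranks 87, 143 and 187, and a percentile of 95.4 ± 1.68 (SD, n = 3). The second, 19033051 to 19033646, had a signal of 1581 and ranks 242, 243 and 278. Its summit lay in an exon of lncRNA:CR45940, a non-coding RNA gene within nkd, 554 bp downstream of that gene's start. The third, 20.4 kb from the 5′ end in an intron (19024804 to 19025233, signal 865), had ranks 578, 559 and 556. These 3 peaks had nearly the same place in every replicate, with percentile SDs from 0.743 to 1.68.

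The other 3 peaks of nkd had lower signals, from 213 to 321. The promoter peak, 17 bp downstream of the start (19045330 to 19045493, signal 213), had ranks 5961, 4907 and 1127, and so was a top region of replicate 3 alone. An intronic peak 1732 bp downstream (19043549 to 19043845, signal 321) had ranks 2607, 1220 and 1378. The last, 19035410 to 19035849 (signal 215), had ranks 2874, 3049 and 3751. The protein-coding gene whose strongest peak had ranks most like those of the strongest nkd peak was comm2 on 3L (ranks 82, 116 and 191), with a sum of absolute log2 rank ratios over the 3 replicates of 0.42. Stat92E, DPCoAC and att-ORFB followed with 0.45 through a single peak that lies in the windows of all 3 (ranks 91, 125 and 213).

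Over the 40 peaks, all 3 replicates placed 28 among their 3567 highest regions (70.0%, exact 95% interval 53.5 to 83.4%), against 65.3% of all peaks. A further 8 had the support of 2 replicates, 3 of 1 and 1 of none. By replicate, 36 of the 40 were top regions of replicate 1, 36 of replicate 2 and 31 of replicate 3, and none was missing from any replicate's list. Spearman's rho of the replicate signals over the 40 peaks was 0.845 (replicate 1 with 2), 0.681 (1 with 3) and 0.815 (2 with 3). Over all 3567 peaks it was 0.829, 0.740 and 0.806 for the same pairs. These describe sites that share libraries and a control, and the replicates measured here also gave rise to the list of peaks. The 40 peaks lie in 38 distinct regions. Summits that overlap the same replicate region, at fz2 and Axn, take the same ranks, so the 40 are not independent. The median signal of the 40 peaks was 354, against 332 for the 3527 others, and 20 of the 40 stood in the upper 1783 of the list.

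**Figure D4:**
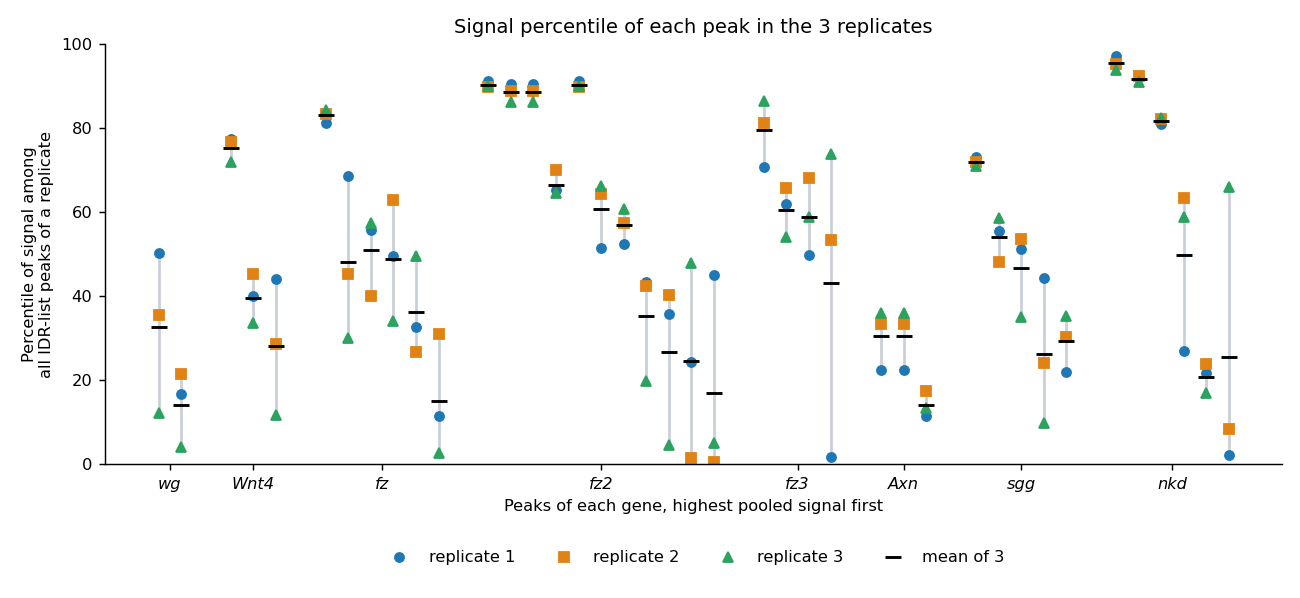
Each column is 1 peak, grouped by gene and ordered by pooled signal within the gene; symbols give its signal percentile among all peaks in each of the 3 replicates, black dashes the mean and grey lines the range. The strongest peaks of nkd, fz2, fz and sgg have symbols that nearly coincide, while the weaker peaks of fz2, fz3 and nkd range widely.

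Most of the 40 peaks lay in introns, and few at promoters. Introns held 27 (67.5%, exact 95% interval 50.9 to 81.4%), against 50.2% of the 2204 peaks at other protein-coding genes of at least 10 kb and 36.1% of all peaks elsewhere. All 11 peaks of fz2 are among these 27, and the interval treats neighbouring peaks of a gene as independent. Promoters, within 500 bp of a start, held 6 (15.0%, 5.71 to 29.8%), against 37.6% and 39.8%. The number of promoter peaks depended on that distance: 15 of the 40 lay within 1000 bp of a start. Of the rest, 5 were intergenic, 1 was in a coding exon and 1 in a non-coding exon, while none was in a 5′ or 3′ UTR (upper bound 8.81% for each). The pooled-only summits of the same genes were divided alike, with 68.6% in introns and 13.5% at promoters. The median distance to the nearest annotated start was 1779.5 bp, against 931 bp for all peaks. That start belonged to the gene itself for 24 of the 40 peaks, to a non-coding RNA gene for 10 and to another protein-coding gene for 6.

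All 10 genes had a pooled summit within 500 bp of an own start. The share of all protein-coding genes with one was not computed, so that count is no result about these genes. A peak stood within 500 bp of an own start at 4 of the 10 (fz3, sgg, Axn and nkd), against 9.65% of all protein-coding genes. That share is not matched for gene length or number of starts, and sgg alone has 11 starts. These own-promoter peaks, of which sgg had 2, had signals from 199 to 425, and each of the 4 genes had a higher peak elsewhere in its window.

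**Figure D5:**
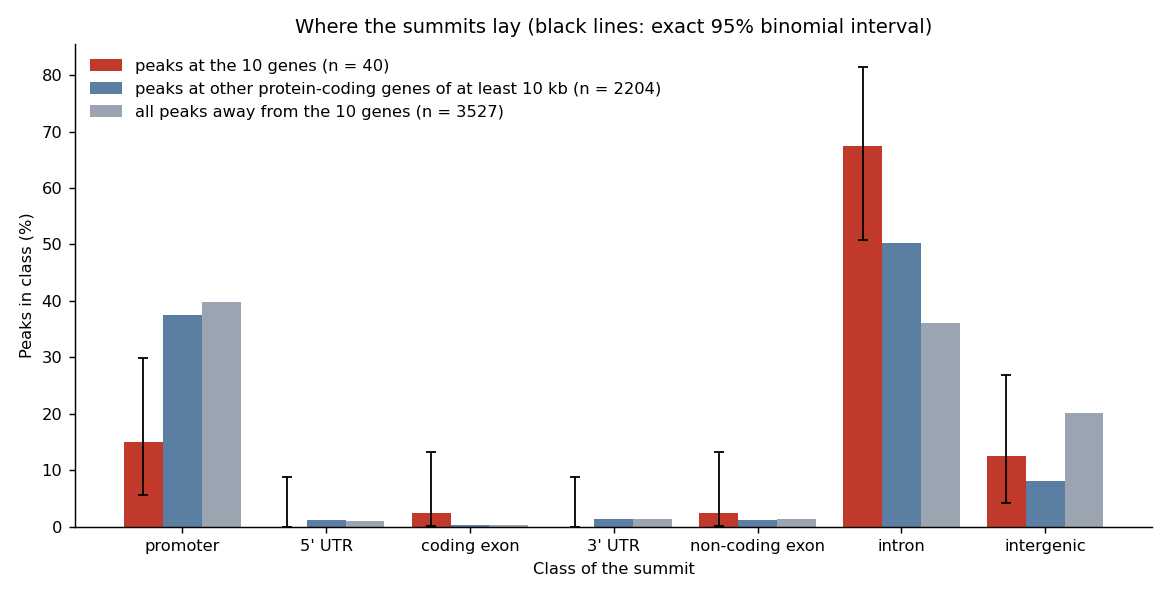
Bars give the percentage of summits in each class for the 40 peaks of the 10 genes (red, with exact 95% binomial intervals as black lines), 2204 peaks at other protein-coding genes of at least 10 kb (blue) and all 3527 peaks away from the 10 genes (grey). The red bar is the highest of the 3 for introns, at 67.5%, and the lowest for promoters, at 15.0%.

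Other genes of the pathway were counted in the same way. Of 15 further genes for ligands, receptors and their helpers, 7 had a peak in the same kind of window. The strongest were at Notum, which encodes an enzyme that inactivates Wnt ligands (signal 3821, rank 30, an intergenic peak nearest to a start of CG5895, 1566 bp away), and at arr, which encodes the Wingless co-receptor Arrow (8 peaks, the strongest with a signal of 3474 at the promoter of its neighbour cnn). dlp, a glypican gene, followed with 6 peaks and a highest signal of 1274, and fz4, another Frizzled gene, with 1 peak of signal 918 at the promoter of CG4615. Wnt2, Wnt6, Wnt10, wntD, por, wls, dsh and Ror had none. The ligand genes Wnt6 and Wnt10 lie beyond wg on arm 2L and held 11 pooled summits and 1.

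Of 20 further genes for cytoplasmic and nuclear components 15 had a peak. The strongest stood at position −160 from a start of gish, a casein kinase gene (signal 5457, rank 7), and at −72 from one of gro, which encodes the co-repressor Groucho (signal 3446, rank 39). At nmo, a kinase gene, the strongest peak was at the promoter of the neighbour HP4 (signal 2978). At nej, which encodes the CBP acetyltransferase, it was at that of lncRNA:CR42657 (signal 2479). Tnks, lgs, pygo, slmb and SoxN had none.

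Of 11 planar cell polarity genes 5 had a peak, led by ds (4 peaks, highest signal 2004) and ft (2 peaks, highest signal 1488), which encode large cadherins, and by stan (5 peaks, highest signal 695) and dgo (highest signal 636). Of 20 genes known as Wingless targets 14 had one, led by ovo (highest signal 2839), slp1 (2549), hth (13 peaks, highest 2071) and slp2 (2061), all genes of transcription factors. en, eve, dpp, dve, ac and sc had none. Doc2 and Doc3, both targets, share their strongest peak, and the target neur shares its peak with hyx of the cytoplasmic and nuclear list, so these genes are not independent. These shares, 7 of 15, 15 of 20, 5 of 11 and 14 of 20, can be read against the 31.4% of all protein-coding genes with a peak, and gene length differs between the lists.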

How the data were processed

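Region lists on dm6 were used as deposited. Fragments were 200 to 800 bp after sonication, per the labels. Per the accompanying notes, the authors derived 1 list per replicate from its alignments and those of 1 shared control, a pooled list from all 3 replicates and the control, and the IDR list from the other lists. Aligner, peak caller and IDR threshold: not given in the sources used here. The authors' signal value (column 7) has no stated unit or depth scaling. The deposited −log10 q-value was 3.96 for every peak and was not used to rank.

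Summits were placed on Ensembl BDGP6 genes (dm6 coordinates, counted from 1) and took the first class that applied: promoter (at most 500 bp from a start), then UTR at the 5′ side, coding exon, UTR at the 3′ side, exon of a non-coding gene, intron or intergenic. A replicate's rank for a peak is that of its highest region overlapping by at least 1 bp. A replicate supported a peak when that rank was 3567 or better. Words and motifs were read from RefSeq's Release 6 sequence, whose arms end past every coordinate in the lists. All 10 symbols matched, and in the other lists all but d, 1 of 12 planar polarity genes. Intervals are exact (Clopper-Pearson). Python 3.11.15, pandas 2.3.3 and scipy 1.17.1 were used, and the matching and word counts were tested on simulated data. The 10 genes, the other lists and the motifs were chosen with earlier results of these data known. All 3 libraries formed 1 group, so no test was made; other windows, overlaps, lists and left-out replicates were tried. All peaks of the 10 genes are given, and the 4 highest genes of each other list are named.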

Additional observations from a re-analysis of the deposited data

How the results depend on the processing

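The count of 40 peaks at the 10 genes moved by more than 1.5 times under 2 alternatives: it was 20 with only the higher part of the IDR list and 24 when a peak counted only for the gene of its nearest start. It was 31, 36 and 43 with windows of 0, 2 and 10 kb, 38 with 1 summit per region, and, counting only peaks among the top regions of both remaining replicates, 29 to 34 without 1 replicate. The number of genes with a peak, 8, ran from 6 to 10 over all alternatives run; it was 9 with a 10 kb window, 6 in the higher part of the list and 10 for all pooled summits. Promoter peaks numbered 6, but 15 within 1000 bp of a start and 4 within 200 bp. Peaks supported by all replicates numbered 28, but 16 when 0.5 times as many top regions were considered. They numbered 25 with summits within 100 bp, 20 under a stricter overlap, 37 with 2 times as many top regions and 29 to 34 without 1 replicate. The mean percentile of a peak shifted by at most 20.6 points without 1 replicate; with 3 values such a shift is always smaller than the SD, so this says nothing about stability. No paired analysis was possible because there was a single group. Depth is unknown, so the limit it sets on weak summits cannot be given.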
